A study of Rattus norvegicus with 6 samples.

Results

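The chemokine ligand genes of rat vascular smooth muscle cells (VSMCs) were described across 6 RNA-seq libraries. Members were taken by name, as every row whose gene symbol begins with Cxcl, Ccl or Cx3cl followed by a number, which gave 19 of the 13526 genes in the authors' table. Primary wild-type VSMCs from the thoracic aorta of rats were cultured in osteogenic media (OM), which contained 10 mM β-GP, a phosphate donor, and 3.5 mM CaCl2. The OM plus EMPA group (n = 3) also received 1 μM empagliflozin, which inhibits the glucose transporter SGLT2, and the OM group (n = 3) did not. The sample titles and the columns of the table call the medium Pi, which in the paper stands for a different stimulus made with inorganic phosphate. OM is given by the labels' treatment protocol and by the series' design text, and was followed here, but the conflict was not settled. The labels give 5 days of culture and a figure legend of the paper gives a shorter time. Both groups carry the osteogenic stimulus, and cells in ordinary medium were not analysed here. The comparison therefore asks how chemokine transcripts differ with empagliflozin under osteogenic conditions. The cells were outgrown from aortic tissue and passaged in culture, so they model cultured VSMCs, away from blood and leukocytes. Whether the samples within a group are separate cultures or animals is not stated. The p-values therefore cover no more than the spread among these samples, and that spread may be technical.

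Chemokines are small secreted proteins that bind G-protein-coupled receptors on leukocytes and direct their migration along a gradient. Many inflammatory members are transcribed after TNF-α, IL-1 or interferons activate NF-κB and interferon regulatory factors, whereas homeostatic members such as Cxcl12 are made without such a stimulus. In the arterial wall, chemokines from VSMCs and endothelial cells recruit monocytes, T cells and neutrophils, and they are known for their part in atherosclerosis.

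Transcript levels are given in TPM, the usual unit of transcript abundance corrected for transcript length, so levels of different genes can be set side by side. TPM keep no record of sequencing depth, and the precision of a value is seen only from the spread between libraries. The libraries summed to 997954 to 998293 TPM. Transcripts of the mitochondrial genome took 10.3% to 10.9% of TPM with empagliflozin and 8.0% to 9.69% without. Replicate 2 had the highest mitochondrial share of its group in both groups. It was also the lowest library of both groups for 12 of the 19 chemokine genes, against 17.3% of all tested genes. The part of these shares in the results was not tested, and results without replicate 2 are given where they differ. The smooth muscle markers Tagln and Acta2 stood at 2052 ± 172 and 488 ± 65.0 TPM with empagliflozin, and at 1528 ± 152 and 302 ± 57.6 TPM without (SD, n = 3). Acta2 and Tagln encode smooth muscle actin and transgelin.

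Most chemokine ligands were lower with empagliflozin. Of the 19 genes, all of which passed the filter of a mean of at least 1 TPM, 11 fell, 1 rose and 7 were not called. Genes were called where limma on log2(TPM + 1) gave an adjusted p no higher than 0.05, with adjustment over the 12564 tested genes. Over all tested genes 4.86% were called lower and 2.06% were called higher. Scaling the libraries by median ratios in place of the TPM sum turned the calls over all genes from 611 lower and 259 higher to 381 lower and 390 higher, while the chemokine counts were still 11 lower and 1 higher. The median log2 fold change was -0.84 for the chemokine ligands and -0.05 for all tested genes. For 13 ligands every OM plus EMPA library lay below every OM library, a pattern met by 22.5% of tested genes. Of the 56 tested genes that were called and lower by at least 2-fold, 8 were chemokine ligands. In whole-culture RNA, fewer expressing cells and less RNA per cell cannot be told apart.

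**Figure D1:**
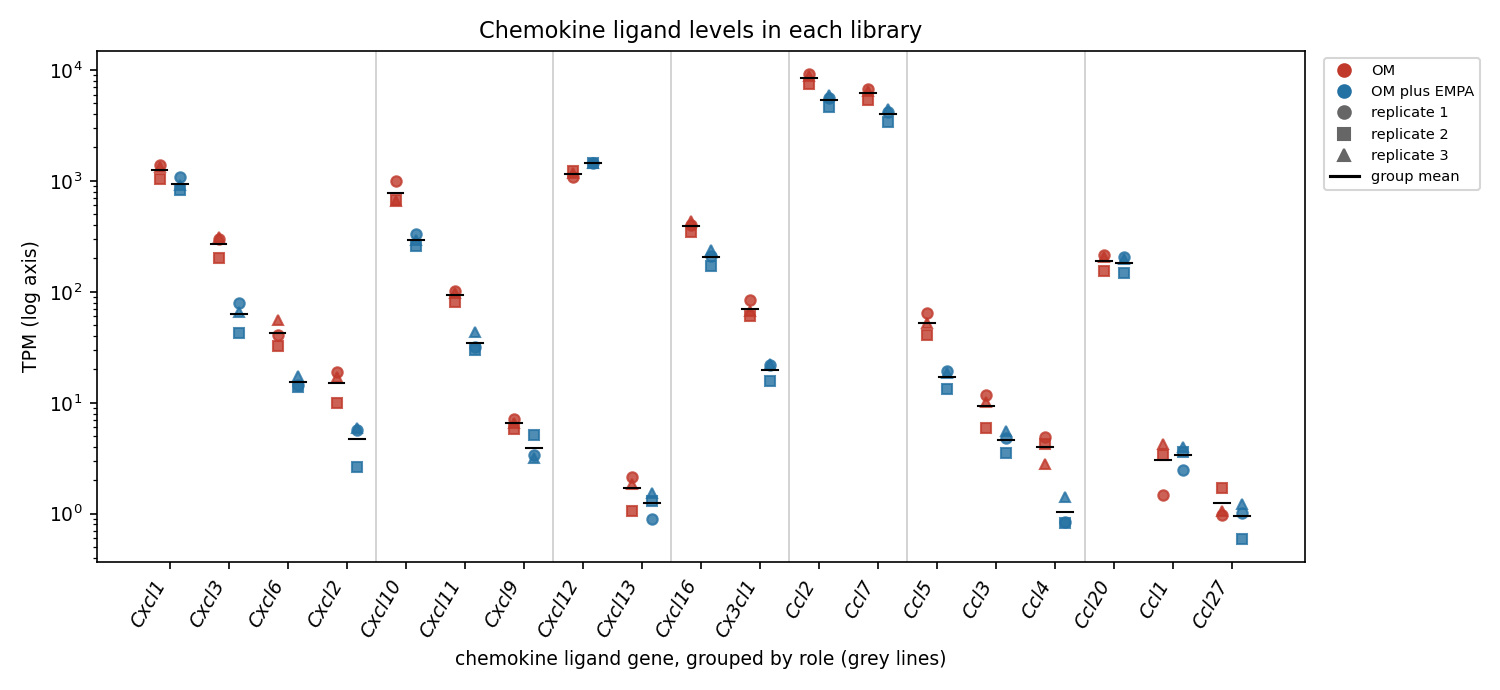
TPM of the 19 chemokine ligand genes in each library on a log axis, grouped by role between grey lines, with OM libraries in red, OM plus EMPA libraries in blue, a marker shape for each replicate and a black bar at the group mean. The ligands span from Ccl2, at 8535 TPM in the OM group, to Ccl27, at 1.25 TPM, and Cxcl12 is the one called gene whose blue points lie above the red points.

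The neutrophil-attracting CXC ligands Cxcl1, Cxcl3, Cxcl6 and Cxcl2 signal mainly through the receptor CXCR2. Of these 4 genes 3 fell and 1, Cxcl1, did not pass the test, with a median log2 fold change of -1.46. Cxcl3 had the largest decrease of all chemokine ligands. It was at 79.4, 42.7 and 66.0 TPM in OM plus EMPA replicates 1, 2 and 3 and at 297, 199.8 and 314 TPM in OM replicates 1, 2 and 3. The highest library with empagliflozin was far below the lowest without it, and replicate 2 was the lowest in both groups. Mean levels were 62.7 ± 18.6 against 270.2 ± 61.6 TPM (SD, n = 3), a 4.31-fold difference. Cxcl3 fell by 2.11 on the log2 scale (limma, SE 0.24, adjusted p = 0.00454).

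Cxcl6, a neutrophil attractant of the same gene cluster, was at 14.6, 13.9 and 17.2 TPM with empagliflozin and at 41.1, 32.5 and 55.3 TPM without. The groups did not overlap. Cxcl6 fell by 1.41 on the log2 scale (limma, SE 0.17, adjusted p = 0.00543). Cxcl2, also called MIP-2, was at 5.71, 2.64 and 5.87 TPM with empagliflozin and at 18.8, 9.85 and 17.0 TPM without. Its replicate 2 libraries were the lowest of each group, and the groups stayed apart. Cxcl2 fell by 1.51 (limma, SE 0.30, adjusted p = 0.0272). This call was lost without OM plus EMPA replicate 1 (adjusted p = 0.0501, limma), OM plus EMPA replicate 2 (adjusted p = 0.0590), OM replicate 1 (adjusted p = 0.0882) or OM replicate 3 (adjusted p = 0.0880), with the log2 fold change between -1.21 and -1.78 over all 6 libraries left out in turn.

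Cxcl1, also known as CINC-1 or KC, was the most abundant of the 4 and differed least. Its levels were 1085, 834 and 914 TPM with empagliflozin and 1403, 1038 and 1328 TPM without. OM replicate 2 lay below OM plus EMPA replicate 1, so the groups overlapped. The log2 fold change was -0.41 (95% interval -0.71 to -0.11, adjusted p = 0.109, limma). Without OM replicate 2 it was -0.54 and passed (adjusted p = 0.0404, limma), and with the replicate number as a block it also passed (adjusted p = 0.00694, limma).

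The relative abundance of the 3 closely related genes Cxcl1, Cxcl2 and Cxcl3 was compared as a ratio within each library, which is free of library scaling. Cxcl3 amounted to 0.0732, 0.0512 and 0.0723 of Cxcl1 with empagliflozin and to 0.211, 0.192 and 0.237 without. The ratio was lower in all 3 libraries with empagliflozin, with a log2 difference of -1.72 (SE 0.19). A 2-sided exact permutation test gave p = 0.1, the smallest that 3 against 3 libraries allow. Adjustment over the 9 ratios computed gave 0.113. Those 9 include the ratios to Cxcl12 below, whose direction follows from their choice, so the adjusted value carries little information. For Cxcl2 over Cxcl1 the log2 difference was -1.31 (SE 0.34, exact permutation p = 0.1), again with no overlap. The ratio of Cxcl3 to Cxcl2 overlapped between the groups, at 11.3 to 16.2 against 15.8 to 20.3 (exact permutation p = 0.2). These genes are paralogs of similar sequence, and the sources do not say how reads shared between them were divided, so their split is uncertain.

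The neutrophil-attracting genes lie side by side on chromosome 14 of the authors' table, from 17181062 to 17313093 in a build the sources do not name. Promoter windows of 250 bases before to 50 bases after the transcription start were taken from RefSeq (GRCr8), which held a window for 14 of the 19 genes. Cxcl3, Ccl2, Ccl3, Ccl4 and Ccl5 had no entry. Each window was searched on both strands for the NF-κB consensus, for the interferon-stimulated response element GAAANNGAAA, for the AP-1 site TGANTCA and for the TATA box TATAAA. Overlapping matches of a motif were each kept. The NF-κB consensus was present in 7 of the 14 windows and in 7.51% of the 33469 windows of all genes. The windows of Cxcl1, Cxcl6 and Cxcl2 follow because they set a ligand that did not pass the test beside 2 that fell. They run 5′ to 3′ on the minus strand, from chr14:17479272-17479571, chr14:17596368-17596667 and chr14:17467206-17467505, with capitals for matches to the NF-κB consensus, the only motif of the 4 found in them.
Cxcl1: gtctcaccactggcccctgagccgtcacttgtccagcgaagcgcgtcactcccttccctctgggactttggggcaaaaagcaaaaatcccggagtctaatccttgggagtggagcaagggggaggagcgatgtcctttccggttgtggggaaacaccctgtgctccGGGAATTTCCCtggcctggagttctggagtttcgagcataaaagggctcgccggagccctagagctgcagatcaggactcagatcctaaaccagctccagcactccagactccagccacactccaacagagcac
Cxcl6: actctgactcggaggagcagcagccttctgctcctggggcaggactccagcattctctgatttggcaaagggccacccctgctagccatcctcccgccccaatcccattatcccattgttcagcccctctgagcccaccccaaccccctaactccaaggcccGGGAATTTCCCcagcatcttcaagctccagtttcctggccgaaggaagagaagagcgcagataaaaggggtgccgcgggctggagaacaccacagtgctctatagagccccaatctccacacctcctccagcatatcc
Cxcl2: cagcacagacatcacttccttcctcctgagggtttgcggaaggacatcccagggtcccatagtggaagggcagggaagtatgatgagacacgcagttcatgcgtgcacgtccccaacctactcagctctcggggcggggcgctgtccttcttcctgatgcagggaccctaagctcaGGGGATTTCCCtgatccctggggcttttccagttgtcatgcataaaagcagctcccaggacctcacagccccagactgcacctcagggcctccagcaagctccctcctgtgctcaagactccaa
The matches began 84 bases before the start in Cxcl1, 88 in Cxcl6 and 74 in Cxcl2. Cxcl1 and Cxcl6 held the same capital letters, and a match to the consensus was present whether or not the gene passed the test. A match describes these letters only.

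The CXCR3 ligands Cxcl10, Cxcl11 and Cxcl9 are induced by interferons and attract activated T cells. Of these 3 genes 2 fell and 1, Cxcl9, did not pass the test. Cxcl10, also called IP-10, was at 331, 259.8 and 292 TPM with empagliflozin and at 998, 675 and 659 TPM without. OM replicate 1 stood above the other OM libraries, and even the lowest OM library was above every library with empagliflozin. Cxcl10 fell by 1.38 on the log2 scale (limma, SE 0.16, adjusted p = 0.00459). Cxcl11 was at 31.8, 29.6 and 43.4 TPM with empagliflozin and at 103, 80.8 and 97.3 TPM without, with no overlap. It fell by 1.41 (limma, SE 0.14, adjusted p = 0.00337).

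Cxcl9, the least abundant CXCR3 ligand, was at 3.38, 5.10 and 3.15 TPM with empagliflozin and at 7.10, 5.84 and 6.62 TPM without. The groups did not overlap, although OM plus EMPA replicate 2 came close to OM replicate 2. The log2 fold change was -0.64 (95% interval -1.01 to -0.28, adjusted p = 0.0512, limma), just outside the threshold. It passed without OM plus EMPA replicate 2 (log2 fold change -0.82, adjusted p = 0.0240, limma) and when each library had to reach 1 TPM (adjusted p = 0.0447).

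Cxcl10 and Cxcl11 are the only members whose windows held both the NF-κB consensus and the AP-1 site besides Ccl7, and Cxcl10 is the only one with the interferon-stimulated response element. Their windows are shown because these neighbours, which fell by a like amount, differ in their motifs. They run 5′ to 3′ on the plus strand of GRCr8, from chr14:15988816-15989115 for Cxcl10 and chr14:15973478-15973777 for Cxcl11, with capitals for matches to any of the 4 motifs.
Cxcl10: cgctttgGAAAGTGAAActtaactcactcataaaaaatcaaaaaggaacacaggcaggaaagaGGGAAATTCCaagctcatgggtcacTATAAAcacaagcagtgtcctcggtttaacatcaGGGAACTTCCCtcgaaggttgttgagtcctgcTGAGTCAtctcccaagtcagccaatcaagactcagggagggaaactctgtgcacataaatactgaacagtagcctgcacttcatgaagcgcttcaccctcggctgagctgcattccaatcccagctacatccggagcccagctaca
Cxcl11: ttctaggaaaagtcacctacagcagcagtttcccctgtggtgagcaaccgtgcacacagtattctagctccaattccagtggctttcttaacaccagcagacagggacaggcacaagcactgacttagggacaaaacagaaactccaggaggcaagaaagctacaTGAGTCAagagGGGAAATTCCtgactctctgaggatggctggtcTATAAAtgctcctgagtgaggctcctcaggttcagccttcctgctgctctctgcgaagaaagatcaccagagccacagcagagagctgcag
In Cxcl10 the response element began 243 bases before the start and the AP-1 site 96 bases before it. Matches to the NF-κB consensus began 187, 128 and 127 bases before the start, and the letters TATAAA 162 bases before it. In Cxcl11 the AP-1 site began 85 bases, the NF-κB match 74 bases and the letters TATAAA 41 bases before the start. Over all windows 3.92% held the response element, 7.33% the AP-1 site and 14.2% the letters TATAAA at any position. Among the members 1, 3 and 5 of the 14 windows did. On the sense strand 40 to 20 bases before the start, TATAAA began in 1.37% of all windows. The TATAAA matches of Cxcl10, Cxcl11 and Cx3cl1 began outside that stretch. Those of Ccl7 and Cxcl13 began inside it, 34 and 33 bases before the start.

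Cxcl12, or SDF-1, signals through CXCR4 and is the homeostatic chemokine that retains stem cells and guides progenitors. It was the 1 chemokine ligand that rose. Its levels were 1457, 1456 and 1439 TPM with empagliflozin and 1078, 1236 and 1168 TPM without. The 3 libraries with empagliflozin lay close together and above all 3 OM libraries. Mean levels were 1451 ± 10.4 against 1161 ± 79.2 TPM (SD, n = 3), and Cxcl12 rose by 0.32 on the log2 scale (limma, SE 0.06, adjusted p = 0.0181). The call was lost without OM plus EMPA replicate 1 (adjusted p = 0.0650, limma), OM plus EMPA replicate 2 (adjusted p = 0.0610), OM plus EMPA replicate 3 (adjusted p = 0.0521) or OM replicate 3 (adjusted p = 0.0651). The log2 fold change lay between 0.27 and 0.39 under every setting tried. Cxcl13, the other homeostatic ligand, which attracts B cells, was at 0.9, 1.3 and 1.55 TPM with empagliflozin and at 2.15, 1.05 and 1.87 TPM without, and the groups overlapped (log2 fold change -0.24, 95% interval -0.70 to 0.22).

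**Figure D2:**
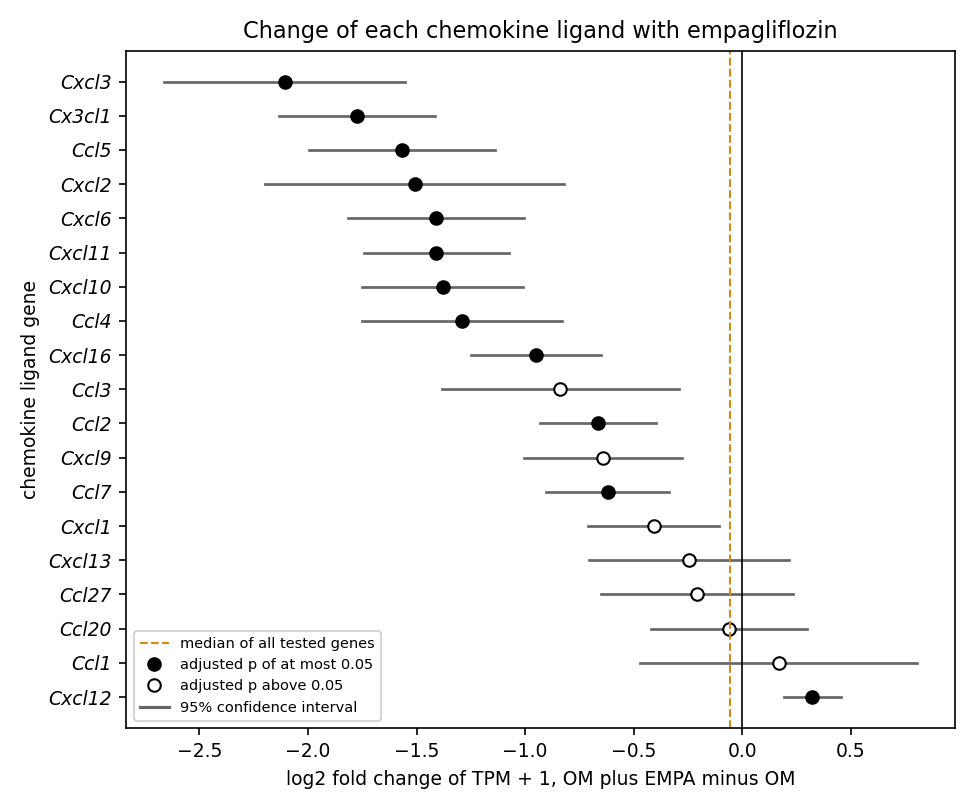
Log2 fold change of TPM + 1, OM plus EMPA minus OM, of each chemokine ligand with its 95% confidence interval from limma, where filled points are called genes and the dashed line is the median of all tested genes at -0.05. The fold changes run from Cxcl3 at -2.11 to Cxcl12 at 0.32, the only filled point to the right of 0.

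Cxcl16 and Cx3cl1 are made as membrane-anchored proteins and are released by proteases. Both fell. Cx3cl1, or fractalkine, which binds CX3CR1 on monocytes, was at 21.8, 15.7 and 22.2 TPM with empagliflozin and at 83.8, 60.3 and 66.6 TPM without. Every OM library was well above every library with empagliflozin. Cx3cl1 fell by 1.77 on the log2 scale (limma, SE 0.15, adjusted p = 0.00206), the smallest adjusted p among the chemokine ligands. Cxcl16, which is also a scavenger receptor for oxidised lipoprotein, was at 208, 169 and 237 TPM with empagliflozin and at 403, 343 and 439 TPM without. The groups did not overlap, and Cxcl16 fell by 0.95 (limma, SE 0.13, adjusted p = 0.00728). Its span overlaps that of Zmynd15 on the other strand by 548 bases, and the library kit does not mark strand, so shared reads cannot be told apart there. Zmynd15 had a mean of only 5.91 TPM.

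The monocyte-attracting CC ligands Ccl2 and Ccl7 were the most abundant chemokine transcripts and both fell. Ccl2, or MCP-1, which binds CCR2, was at 5554, 4654 and 5976 TPM with empagliflozin and at 9192, 7515 and 8900 TPM without. It ranked 8 by mean TPM among all genes of the table, and Ccl7 ranked 12. The groups did not overlap for Ccl2, and replicate 2 was lowest in each. Ccl2 fell by 0.66 on the log2 scale (limma, SE 0.11, adjusted p = 0.0167). Ccl7, or MCP-3, was at 4198, 3394 and 4451 TPM with empagliflozin and at 6693, 5343 and 6437 TPM without, in the same order of libraries. It fell by 0.62 (limma, SE 0.12, adjusted p = 0.0277).

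Both calls were lost when some single libraries were left out. That of Ccl2 was lost without OM plus EMPA replicate 1 (adjusted p = 0.0527, limma), OM replicate 1 (adjusted p = 0.0566) or OM replicate 3 (adjusted p = 0.0663). That of Ccl7 was lost without OM plus EMPA replicate 1 (adjusted p = 0.0674, limma), OM plus EMPA replicate 2 (adjusted p = 0.0632), OM replicate 1 (adjusted p = 0.0860) or OM replicate 3 (adjusted p = 0.0932). The log2 fold changes stayed between -0.75 and -0.56 for Ccl2 and between -0.72 and -0.50 for Ccl7.

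Ccl5, Ccl3 and Ccl4 are inflammatory CC ligands that attract T cells and macrophages. Ccl5 and Ccl4 fell and Ccl3 did not pass the test. Ccl5, or RANTES, was at 19.3, 13.3 and 18.5 TPM with empagliflozin and at 65.0, 40.6 and 52.8 TPM without. The groups were well apart, and Ccl5 fell by 1.57 on the log2 scale (limma, SE 0.18, adjusted p = 0.00459). Ccl4, or MIP-1β, was at 0.84, 0.82 and 1.42 TPM with empagliflozin and at 4.96, 4.25 and 2.79 TPM without. Its groups did not overlap at these low levels, and it fell by 1.29 (limma, SE 0.20, adjusted p = 0.0116). Without replicate 2 of both groups, a setting added after seeing the data, its call was lost (log2 fold change -1.17, adjusted p = 0.110, limma). Ccl3, or MIP-1α, was at 4.78, 3.54 and 5.56 TPM with empagliflozin and at 11.8, 5.90 and 10.2 TPM without. OM replicate 2 came within reach of OM plus EMPA replicate 3 without overlapping, and the log2 fold change was -0.84 (95% interval -1.38 to -0.29, adjusted p = 0.0778, limma). It passed without OM replicate 2 (log2 fold change -1.10, adjusted p = 0.0190, limma) and with the replicate block (adjusted p = 0.0112). Ccl3 and Ccl4 overlap by 887 bases on opposite strands, so reads in the overlap cannot be told apart.

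The lymphoid and barrier ligands Ccl20, Ccl1 and Ccl27 did not pass the test. Ccl20, the ligand of CCR6, was at 204, 148 and 196 TPM with empagliflozin and at 216, 153 and 204 TPM without. Each replicate number had a similar level in both groups, replicate 2 was the lowest in each, and the log2 fold change was -0.06 (95% interval -0.42 to 0.30). Ccl1, which binds CCR8, was at 2.48, 3.61 and 4.02 TPM with empagliflozin and at 1.48, 3.40 and 4.21 TPM without (log2 fold change 0.17, 95% interval -0.47 to 0.81). Ccl27, a skin chemokine that binds CCR10, was at 1.02, 0.590 and 1.23 TPM against 0.980, 1.71 and 1.05 TPM (log2 fold change -0.21, 95% interval -0.65 to 0.24). The groups overlapped for all 3 genes, and the intervals of Ccl1 and Ccl27 are wide at levels near the filter. The window of Ccl20 is shown because an abundant ligand that did not pass the test holds the NF-κB consensus too. It runs 5′ to 3′ on the plus strand of GRCr8, from chr9:91836909-91837208, with capitals for a match on the other strand that lies 89 to 80 bases before the start.
Ccl20: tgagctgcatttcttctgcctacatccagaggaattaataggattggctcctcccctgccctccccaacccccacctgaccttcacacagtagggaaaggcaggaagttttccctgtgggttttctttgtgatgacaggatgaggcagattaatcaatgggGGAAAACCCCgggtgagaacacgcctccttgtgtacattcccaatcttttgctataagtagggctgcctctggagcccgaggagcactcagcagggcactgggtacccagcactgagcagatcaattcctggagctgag
Of the 7 members with a window that fell, 5 held the NF-κB consensus, and of the 6 that did not pass the test, 2 did. The window of Cxcl12 held none of the 4 motifs. These counts are descriptions with no test.

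**Figure D3:**
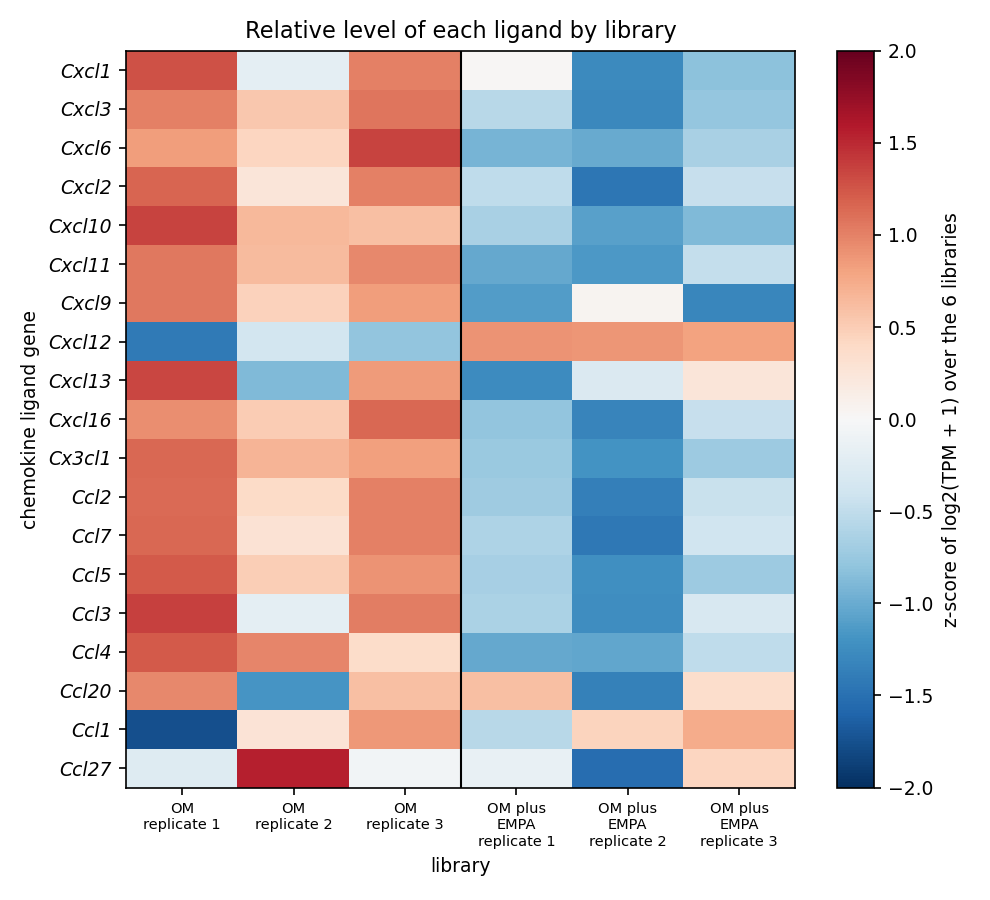
Each row is a chemokine ligand and each column a library, coloured by the z-score of log2(TPM + 1) over the 6 libraries, with OM libraries left and OM plus EMPA libraries right of the black line. Rows of ligands that fell are red on the left and blue on the right, Cxcl12 shows the opposite order, and replicate 2 is the palest or bluest column of its group in most rows.

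The summed level of chemokine transcripts was lower in every library with empagliflozin than in any without. Summed over the 19 genes, TPM were 12655 ± 1412 with empagliflozin and 19044 ± 2033 without (SD, n = 3), or 1.27 ± 0.142% and 1.91 ± 0.204% of each library. Ccl2 and Ccl7 together made up 74.2 ± 1.70% of the pool with empagliflozin and 77.1 ± 0.421% without. The share of Cxcl12 was 11.6 ± 1.42% against 6.17 ± 1.10%, and that of Cxcl3 was 0.490 ± 0.107% against 1.41 ± 0.201%. Without Ccl2, Ccl7 and Cxcl12 the sum was 1796 ± 237 against 3190 ± 505 TPM (SD, n = 3).

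In the OM group the order of levels was Ccl2, Ccl7, Cxcl1, Cxcl12, Cxcl10, Cxcl16, Cxcl3 and Ccl20, where the ranges of Cxcl1 and Cxcl12 overlapped and so did those of Cxcl3 and Ccl20. In the OM plus EMPA group it was Ccl2, Ccl7, Cxcl12, Cxcl1, Cxcl10, Cxcl16, Ccl20 and Cxcl3. There the ranges of Cxcl12 and Cxcl1 did not overlap, nor did those of Ccl20 and Cxcl3, while those of Cxcl16 and Ccl20 did. Compared within libraries, Cxcl3 lay above Ccl20 in every OM library. Cxcl16 likewise lay above Ccl20 in every OM plus EMPA library. Further down, the range of Ccl5 overlapped those of its neighbours Cx3cl1 and Cxcl6 in both groups.

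Ratios to Cxcl12 within each library describe how far the other ligands moved relative to it. Cxcl12 was chosen as the 1 ligand that rose, and 5 of the 6 ligands set over it had fallen without overlap, so the direction follows from the choice and no test is given. Ccl2 was 3.81, 3.20 and 4.15 times Cxcl12 with empagliflozin and 8.53, 6.08 and 7.62 times without, a log2 difference of -0.99 (SE 0.18). The log2 difference was -2.45 (SE 0.37) for Cxcl3, -2.15 (SE 0.26) for Cx3cl1, -2.04 (SE 0.51) for Cxcl2, -1.95 (SE 0.31) for Ccl5 and -0.73 (SE 0.22) for Cxcl1.

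**Figure D4:**
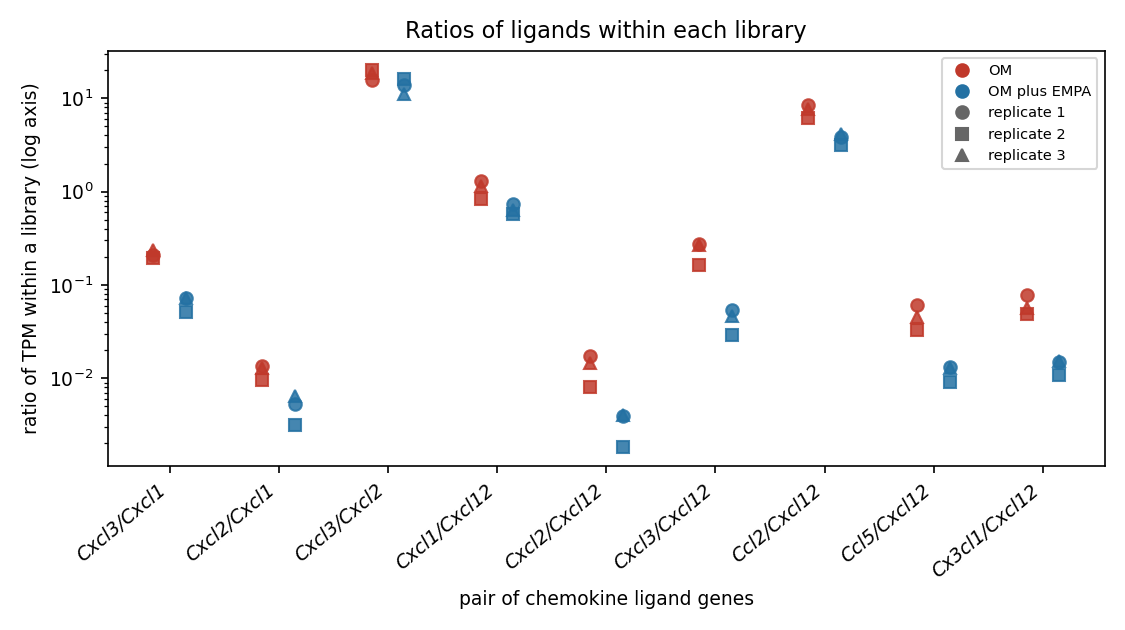
Within-library ratios of chemokine ligands on a log axis, with OM libraries in red and OM plus EMPA libraries in blue. Of the 9 ratios, only Cxcl3 over Cxcl2 overlaps between the groups. The direction of the ratios to Cxcl12 follows from its choice. Ccl2 over Cxcl12 goes from 6.08 to 8.53 without empagliflozin to 3.20 to 4.15 with it.

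Genes that act with the ligands were counted from lists. Among all tested genes 4.86% were called lower and 2.06% higher, with a median of -0.05. Of 23 chemokine receptor genes listed, 5 were in the table and 3 were tested. Ccrl2, an atypical receptor that presents chemerin, was at 3.57 ± 0.125 against 7.38 ± 0.830 TPM (SD, n = 3) and fell by 0.87 on the log2 scale (limma, SE 0.10, adjusted p = 0.00459). Ackr3, the scavenging receptor of Cxcl12, was at 147 ± 14.5 against 175.3 ± 20 TPM and did not pass (adjusted p = 0.165, limma). Cxcr4, the signalling receptor of Cxcl12, was at 1.07 ± 0.577 against 0.623 ± 0.15 TPM, below the filter. Of 14 tested genes for shedding, cleavage and surface retention, 2 fell and 1 rose, with a median of -0.04. Adam17, a protease that sheds Cx3cl1 and Cxcl16, was at 71.2 ± 5.88 against 87.6 ± 5.56 TPM (log2 fold change -0.30, adjusted p = 0.0484, limma), and Adam10 had a log2 fold change of -0.04 (adjusted p = 0.679). The heparan sulfate carrier Sdc4 had a log2 fold change of -0.34 (adjusted p = 0.0272, limma) and Gpc4 one of 0.46 (adjusted p = 0.0128, limma). With any 1 library left out, this list held 0 to 1 lower and 1 to 2 higher genes, and 0 lower without OM plus EMPA replicate 2, OM replicate 1 or OM replicate 2.

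Regulators of chemokine transcription were lower in part. Of 20 tested NF-κB pathway genes 7 fell and 0 rose, with a median of -0.27, and 6 to 7 fell with any 1 library left out. The shares over all tested genes, for this and the following lists, were 4.86% lower and 2.06% higher, with a median of -0.05. Tnfaip3, an inhibitor induced by NF-κB, fell by 1.37 (adjusted p = 0.00165, limma), Nfkbie, another inhibitor, fell by 0.75 (adjusted p = 0.00314) and Birc3, which regulates TNF receptor signalling, fell by 0.81 (adjusted p = 0.00482). The other 4 that fell, named after their values were seen, were the inhibitors Nfkbia and Tnip1, the kinase Ikbke and the subunit Nfkb2. The subunit Rela, also named after its values were seen, did not pass the test (adjusted p = 0.131, limma). Of 9 IRF and STAT genes 3 fell, with 2 to 4 when any 1 library was left out. These were Irf7 (-0.44, adjusted p = 0.00859, limma), Irf1 (-0.67, adjusted p = 0.0115) and Stat2 (-0.28, adjusted p = 0.0165). Of 12 inducing cytokine and receptor genes 4 fell, led by Tnf, which encodes TNF-α and was at 9.64 ± 1.60 against 21.9 ± 2.24 TPM (log2 fold change -1.11, adjusted p = 0.00451, limma). That count was 1 or 2 whichever library was left out, and with median-ratio scaling 1 fell and 1 rose. None of 9 chemokine mRNA decay genes, among them Zfp36 and Zc3h12a, was called by limma in either direction (median -0.15). Of them 4 had an unadjusted p under 0.05, and 1 was called lower without OM replicate 3. With 4.86% of all tested genes called lower, the absence of calls in so short a list says little.

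Markers of other cell types were checked over whole lists. Of 16 macrophage and leukocyte markers 3 were in the table, and Ptprc and the other 12 were not analysed here. Their summed level was 145 to 152 TPM with empagliflozin and 153 to 162 TPM without. Fcer1g was at 115 ± 3.47 against 116 ± 4.09 TPM, Cd14 at 26.0 ± 5.8 against 28.6 ± 1.49 TPM, and Cd68, a lysosomal protein of macrophages, at 7.49 ± 2.23 against 13.8 ± 1.07 TPM. Cd68 had a log2 fold change of -0.83 (adjusted p = 0.0378, limma), a call lost without OM plus EMPA replicate 3 or any 1 OM library. Of 11 endothelial markers only Erg was in the table, at 3.39 ± 0.556 against 2.79 ± 1.10 TPM. The fibroblast markers summed to 1020 to 1062 against 1071 to 1080 TPM, most of it from Lum, at 807 ± 23.9 against 857 ± 9.50 TPM and not called. Scara5 was called higher and Pdgfra lower, the latter a call lost whichever library was left out. Of 7 tested smooth muscle markers, Tagln, Acta2, Cnn1 and Lmod1 rose and none fell, with a summed level of 2481 to 2927 against 1758 to 2160 TPM. With 1 library left out, 4 of the tested markers rose without OM replicate 2 and 2 without OM plus EMPA replicate 1 or 3. Only 1 rose without OM replicate 1 or 3, and 0 without OM plus EMPA replicate 2. Smtn, Synpo2 and Myh11 were tested and not called, with log2 fold changes of 0.15, 0.03 and -0.17. The part of any of these in the chemokine results was not tested.

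In the pathway annotation of the authors' table, 9 chemokine ligands were listed under TNF signaling, of which 7 fell and 2 (Cxcl1 and Ccl20) did not pass the test. Of the 8 listed under IL-17 signaling 6 fell and the same 2 did not pass. Lipid and atherosclerosis listed 6, of which 4 fell. NF-kappa B signaling listed 5, of which Cxcl2, Cxcl3 and Ccl4 fell, Cxcl12 rose and Cxcl1 did not pass. For comparison, 11 of all 19 ligands fell, and 4.86% of all tested genes were called lower. The counts under Lipid and atherosclerosis and NF-kappa B signaling were near the share of all ligands. In size, the pathways hold 1.93%, 1.27%, 3.06% and 1.54% of the 5132 genes with a pathway, in the order given.

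Several members lie in clusters in the authors' coordinates. Cxcl11, Cxcl10 and Cxcl9 occupy chromosome 14 from 15689424 to 15728435, and the tested genes on either side, Nup54 and Sdad1, were not called (log2 fold changes -0.19 and -0.23). The cluster of Cxcl2, Cxcl1, Cxcl3 and Cxcl6 was flanked by Mthfd2l, at -0.37 and not called (adjusted p = 0.168, limma). Ccl2 (67005424 to 67007226) and Ccl7 (67016446 to 67018303) are neighbours on chromosome 10, beside Ccl1, which did not pass the test. Further along that chromosome lie Ccl5 (68322587 to 68327391), Ccl3 and Ccl4, and the nearest named gene before Ccl5, Taf15, had a log2 fold change of -0.06. Cxcl12 stands alone on chromosome 4 from 150388325 to 150401179.

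**Figure D5:**
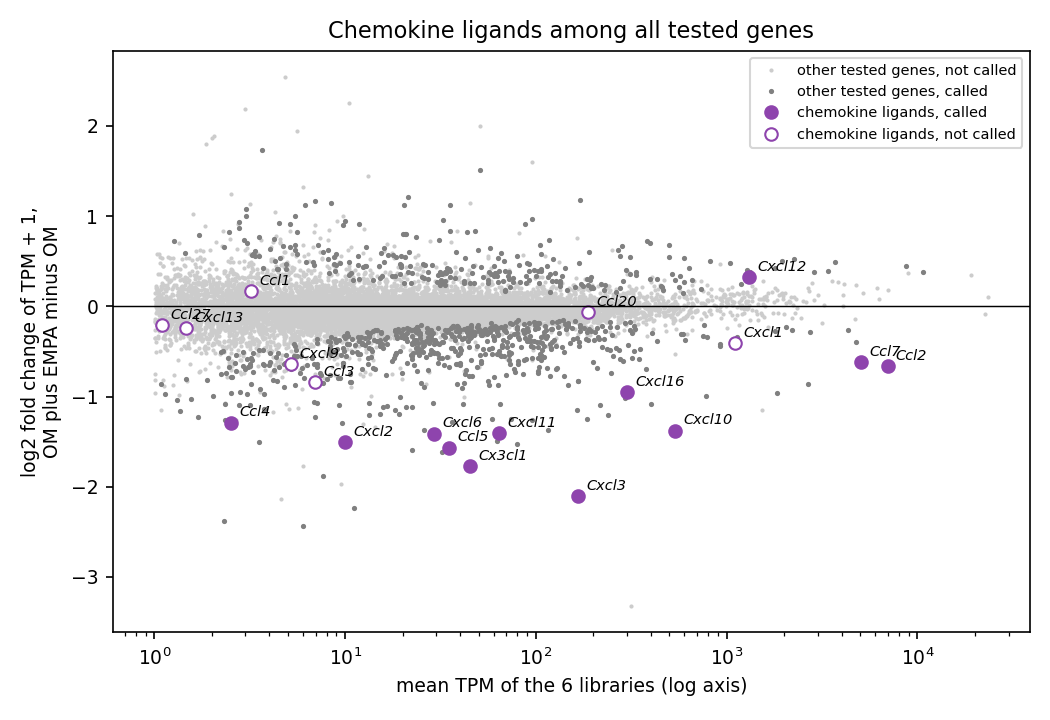
Log2 fold change, OM plus EMPA minus OM, against mean TPM on a log axis for the 12564 tested genes in grey, with the 19 chemokine ligands marked. Filled points are called ligands, which lie at or beyond the lower edge of the grey points from Ccl4 at the low end to Ccl2 at the high end, except Cxcl12 at 0.32.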

How the data were processed

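RNA-seq of 6 samples of primary rat VSMCs was analysed, 3 in OM with empagliflozin and 3 in OM alone, grouped by the sample labels. The table deposited by the authors gives TPM per sample for 13526 genes, a unit corrected for transcript length that keeps no sequencing depth. Tools named in the submitters' processing notes, with no role stated, are HISAT2 2.0.5, RSEM, fastp and DESeq2, and the build of the table's coordinates is not named. The table also holds log2 fold changes and p-values of the authors' own comparison and annotations, and a second deposited table repeats a selection of its rows. The fold changes and p-values in both were not used. The sample was unknown for 0 value columns.

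The 12564 genes whose mean reached 1 TPM were fitted with limma 3.58.1 in R 4.3.3 on log2(TPM + 1), with the group as the only term, a variance trend, 4 residual and 3.80 prior degrees of freedom, and Benjamini-Hochberg adjustment over all of them. Fold changes on this scale understate the change of genes with low TPM. Ratios within libraries were compared by 2-sided exact permutation tests, given only for those among Cxcl1, Cxcl2 and Cxcl3. Tables, motif searches and figures were made with Python 3.11.15, numpy 2.4.6, pandas 2.3.3, matplotlib 3.10.9 and scipy 1.17.1. The members and the gene lists were chosen with earlier results of these data known. All 19 members were named, with up to 3 called genes of each list by smallest p, the 2 most abundant genes of each marker list, and the genes most correlated with Cxcl1, Cxcl2 and Cxcl3 or with Cxcl12, of which 1 is not reported here. Other genes named for their values are the flanking genes, Ackr3, Adam10, Cxcr4, Myocd, the tested smooth muscle markers that were not called and those marked as such.

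The pipeline was tested on data made from the real genes' means and spread for this comparison over 12564 genes. For true log2 changes of 0.585, 1 and 1.5 it called 64.2%, 94.0% and 100% of the changed genes. In the same data 7 unchanged genes were called. With no true change it made 0 calls. Changes were placed only in genes above a minimum level, so levels as low as those of Cxcl13 and Ccl27 were not covered. The simulated noise was independent between libraries, without the replicate 2 pattern seen in the real data. Alternatives were other pseudocounts, filters, scalings and thresholds, the replicate block, no variance trend, and each library left out. Leaving out replicate 2 of both groups was added after seeing the data.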

Additional observations from a re-analysis of the deposited data

How the results depend on the processing

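The count of chemokine ligands that fell was 11 with a pseudocount of 0.1, without a filter, with 1 TPM required in each library, with median-ratio or upper-quartile scaling and without mitochondrially encoded genes, and the count that rose was 1 in each. Without the variance trend 9 fell, with the limma threshold at 0.01 7 fell and 0 rose, and with the replicate block 13 fell. Leaving out 1 library gave 8 to 13 lower (8 without OM plus EMPA replicate 1, OM replicate 1 or OM replicate 3) and 0 to 1 higher. Leaving out replicate 2 of both groups, which was chosen after seeing the data, gave 12 lower and 0 higher. There Cxcl9 and Ccl3 were called and Cxcl12 (0.37, adjusted p = 0.0503 from limma) and Ccl4 were not. Of the 12 called ligands 8 kept their call with any 1 library left out, namely Cxcl3, Cxcl6, Cxcl10, Cxcl11, Cxcl16, Cx3cl1, Ccl5 and Ccl4. Cxcl2 and Ccl7 also lost theirs without the variance trend (adjusted p = 0.0577 and 0.0567 from limma). With 1 TPM required in each library, Ccl4, Cxcl13 and Ccl27 were not tested. No called ligand changed direction under any setting. Over all genes, 611 lower and 259 higher became 381 and 390 with median-ratio scaling, 384 and 403 with upper-quartile scaling, 483 and 296 without mitochondrially encoded genes, 366 and 154 without the variance trend, 951 and 449 with the block, 169 and 82 without replicate 2 of both groups, and 245 to 438 and 80 to 216 with 1 library left out. The cause of these differences was not tested. The replicate numbers did not pair the samples by the rule used, since the deviations of same-numbered libraries correlated at 0.0979, 0.162 and 0.0575. Each library correlated best with its own number, a hint from the data and not from the design. With the block, called receptors went from 1 to 2 lower, NF-κB genes from 7 to 9 lower, shedding and retention genes from 1 to 2 higher, inducing cytokines and receptors from 0 to 2 higher and fibroblast markers from 1 to 2 higher. With median-ratio scaling, lower calls went from 2 to 1 for shedding and retention genes and from 1 to 0 for fibroblast markers. TPM give no depth, so precision rests on 3 libraries a group.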

Other observations

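The genes whose log2(TPM + 1) followed the mean z-score of Cxcl1, Cxcl2 and Cxcl3 most closely over the 6 libraries were Atp13a4 (Pearson r = 0.998), Stxbp5 (0.997) and Peli1 (0.996), and among those closest to Cxcl12 were Hs6st1 (0.996) and Itga11 (0.993). These correlations were searched over all tested genes in 6 libraries that share the group difference, and they are descriptions with no test. Peli1, a ubiquitin ligase of Toll-like and IL-1 receptor signalling, was at 10.9 TPM with empagliflozin and 16.5 TPM without (log2 fold change -0.56). Hs6st1, a heparan sulfate sulfotransferase, was at 24.5 against 16.5 TPM (log2 fold change 0.55), and Itga11, a collagen-binding integrin subunit, at 583 against 456 TPM (log2 fold change 0.35).

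An unnamed gene, ENSRNOG00000069786, lies 437 bases from Cx3cl1 on the opposite strand of the authors' coordinates. It was at 0.490, 0.430 and 0.390 TPM in the OM plus EMPA libraries and at 1.66, 1.55 and 2.28 TPM in the OM libraries. It passed the filter of a mean of 1 TPM only through the OM libraries, so these values are a description with no test. Reads cannot be assigned to a strand here. The nearest tested gene before Cxcl12, Rassf4, had a log2 fold change of 0.41 (adjusted p = 0.0325 from limma) at a distance of 455840 bases.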
